A study of Homo sapiens with 2 samples.

Results

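The G1 cyclins, their kinases and their inhibitors were compared between 2 libraries of THP1, labelled as given bort over 24 h and as untreated. The genes are the kinases CDK4, CDK6 and CDK2, the cyclins CCND1, CCND2, CCND3 and CCNE2, the inhibitors CDKN1A and CDKN1B, and RB1. They were taken by gene symbol, and all 10 were present among the 10987 genes of the deposited table. CDK2, CDK4, CCND2 and CDKN1B lie on chromosome 12, CCND3 and CDKN1A on chromosome 6, CDK6 on chromosome 7, CCNE2 on chromosome 8, CCND1 on chromosome 11 and RB1 on chromosome 13. THP1, labelled a monocytic leukaemia line of human origin, carries the MLL-AF9 fusion according to the study, and bort (bortezomib) blocks the proteasome. The labels give the time of treatment but no dose, and the untreated library has no time of its own. Each condition has 1 library, so no difference below has a replicate check, no test was made, and every comparison is between libraries rather than between conditions.

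In G1, mitogens raise the D-type cyclins, which bind CDK4 and CDK6. These kinases phosphorylate the retinoblastoma protein, the product of RB1, which then releases E2F factors, and cyclin E with CDK2 completes the step into S phase. The CIP/KIP proteins p21 (CDKN1A) and p27 (CDKN1B) bind and inhibit cyclin-CDK complexes, CDK2 above all, and the INK4 proteins bind CDK4 and CDK6 alone. Many of these proteins are themselves degraded by the proteasome, and CDK6 is required for the growth of MLL-rearranged leukaemia. The study asked which genes respond to bort and took CDK6 forward.

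The values are FPKM, fragment counts scaled to transcript length and library size, so levels of different genes can be set side by side within a library. A log2 fold change here is log2(FPKM + 1) in the bort library minus that in the untreated library, a scale on which differences of weakly expressed genes come out smaller. A gene is counted as higher or lower when this difference reaches 2-fold, and plain ratios of FPKM are given beside it. The table holds genes of at least 0.501 FPKM in either library, the number of reads is unknown, and no counting error can be given. Across 10907 genes, transcripts rich in GC had the lower fold changes (Spearman correlation -0.48), so values with this trend removed are also given for each of the 10 genes and for the lists. The label of a monocytic line was checked against markers. The table holds 6 of 15 markers of monocytic and myeloid cells, without CD14, CSF1R or MPO, with a summed level of 24.8 FPKM in the untreated and 65.9 FPKM in the bort library. All 15 erythroid markers were listed, summing to 5086 and 4462 FPKM, and in the bort library 4 of them were at least 2-fold lower, against 10.2% of all genes, and 6 were higher, none by 2-fold. Of the 6 monocytic markers, LYZ, CD68 and ITGAX were at least 2-fold higher, against 8.08% of all genes. SPI1 and ITGAM were higher by less than 2-fold, with log2 fold changes of 0.80 and 0.57, and CD33 was lower, at -0.26. ITGAX and ITGAM, at 0.165 and 0.234 FPKM in the untreated library, were listed only through the bort library. They could therefore come out only as higher. These levels go against the label, so the libraries are named by it only, and the part of such markers in the results below was not tested. In bulk RNA, fewer cells of a type and less RNA per cell cannot be told apart.

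On the FPKM + 1 scale, 1 of the 10 genes was higher by 2-fold or more in the bort library, against 8.08% of all genes, and 2 were lower, against 10.2% of all genes. The gene that was higher was CDKN1A, and the lower genes were CCND1 and CCND3. At 1.5-fold, CDKN1A, CDKN1B, CCNE2 and RB1 were higher, 4 of 10 against 20.8% of all genes, and CDK6, CCND1, CCND2 and CCND3 were lower, 4 of 10 against 21.6%. CDK4 and CDK2 stayed within 1.5-fold. Once the GC trend was removed, 5 of the 10 genes were past 1.5-fold, against 3822 of 10907 genes. CDKN1B, CCNE2 and RB1 came to 0.50, 0.33 and 0.31 on the log2 scale, which leaves CDKN1A as the gene higher by 1.5-fold. The median log2 fold change was -0.37 for the 10 genes and 0.0049 for all genes, and -0.17 and -0.014 with the GC trend removed. With 10 genes these shares rest on a few members each.

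**Figure D1:**
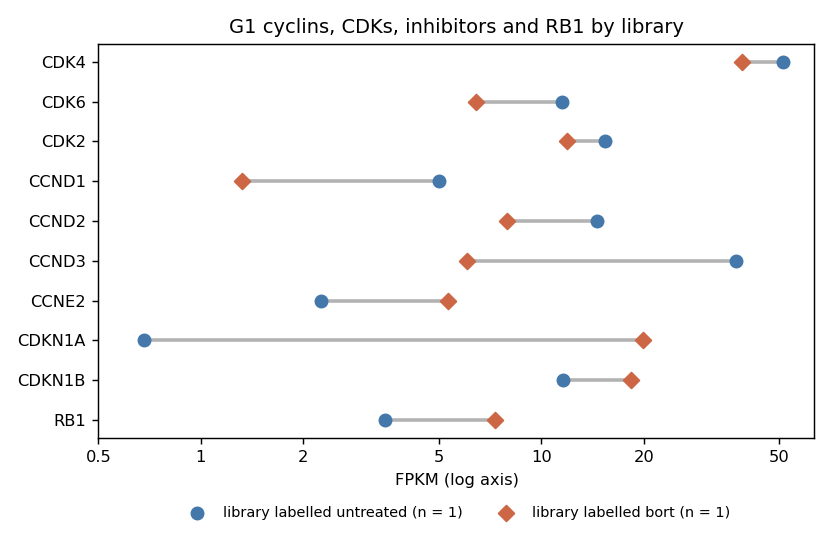
FPKM of the 10 genes on a log axis in the library labelled untreated (circles) and the library labelled bort (diamonds), 1 library each, with no error bars because there are no replicates. The longest lines are those of CDKN1A, from 0.680 to 19.8 FPKM, and CCND3, from 37.4 to 6.05 FPKM.

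Among the kinases, CDK4 was the most abundant in both libraries and all 3 were lower in the bort library. CDK4, which with CDK6 is activated by D-type cyclins, was at 51.2 FPKM in the untreated and 38.8 FPKM in the bort library, 1.32-fold lower, with a log2 fold change of -0.39. CDK2, the partner of cyclin E, was at 15.4 and 11.9 FPKM, 1.29-fold lower, with a log2 fold change of -0.34. CDK6 (ENSG00000105810.9_2) was at 11.5 and 6.45 FPKM, 1.79-fold lower, with a log2 fold change of -0.75. CDK6 was thus the kinase with the largest difference, short of 2-fold, and 16.1% of all genes had a value below that of CDK6. The study chose CDK6 from the genes it called at a 2-fold threshold, which the 1.79-fold here does not reach. It also reported a larger fall of CDK6 by qRT-PCR, a different measure. With the GC trend removed CDK4 was at -0.097, CDK2 at -0.25 and CDK6 at -0.82. The transcripts of CDK4 have a GC content of 57.4%, above the median of 50.2% for all genes, and those of CDK6 one of 48.8%. CDK4 overlaps TSPAN31 on the opposite strand and CDK2 overlaps PMEL, and CDK6 overlaps no other protein-coding gene.

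The balance between the closely related kinases CDK4 and CDK6 differed between the libraries as well. CDK4 exceeded CDK6 by 4.44 times in FPKM in the untreated library and by 6.02 times in the bort library. CDK6 accounted for 18.4% of their summed FPKM in the untreated and 14.2% in the bort library. Such ratios within a library do not depend on how the libraries are scaled. With the GC trend removed the share of CDK6 was 20.4% and 12.8%, the same direction.

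The study measured CDK6 by qRT-PCR with the primers below, which show what part of the gene that assay reads. The amplicon is 152 bases long, crosses from exon 4 to exon 6 and lies in the coding sequence of both protein-coding CDK6 transcripts of GENCODE 29, whereas the FPKM of CDK6 covers every exon of transcripts with a median length of 6538.5 bases.
CDK6 forward primer: ccagatggctctaacctcagt
CDK6 reverse primer: aacttccacgaaaaagaggctt

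The sequences before the starts of CDK6 are shown because the study asked about NF-kB at the CDK6 promoter. The ChIP primers used for p65 had no exact match in either window. Where their products lie was not determined, so the sequences shown cannot be taken as the regions assayed by ChIP. RefSeq (GRCh38.p14) windows of 250 bases before an annotated start were used for 6 of the 10 genes. None was used for CCND1, CCND2, CCNE2 and CDK2, which does not show that RefSeq holds none for each of them. The CDK6 windows are chr7:92833960-92834209 and chr7:92836595-92836823, both on the minus strand, and the latter ends 21 bases short of the annotated start, where the UTR of a longer transcript begins. Capitals mark GGGNNNNNCC, a loose form of the NF-kB site, on either strand, with 3 matches in the former and 2 overlapping matches in the latter. Of all 35116 windows 54.4% hold at least 1 such match and 18.4% at least 3, so these letters are common. The window of CDK4, which is not printed because it lies mostly in the UTR of longer transcripts, holds 3 copies of CACGTG, the E box bound by MYC and related factors. None of these copies lies wholly in the 39 bases before that UTR begins. At least 1 copy was present in 6.34% of all windows and 3 or more in 0.0797%, and several motifs were searched. A match is a description of the letters and no evidence of binding.
CDK6, downstream start: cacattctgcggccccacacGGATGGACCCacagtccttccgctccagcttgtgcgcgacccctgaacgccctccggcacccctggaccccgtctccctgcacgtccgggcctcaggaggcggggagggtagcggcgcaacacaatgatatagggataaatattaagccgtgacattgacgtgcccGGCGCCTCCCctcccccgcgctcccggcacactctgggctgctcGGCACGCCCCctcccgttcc
CDK6, upstream start: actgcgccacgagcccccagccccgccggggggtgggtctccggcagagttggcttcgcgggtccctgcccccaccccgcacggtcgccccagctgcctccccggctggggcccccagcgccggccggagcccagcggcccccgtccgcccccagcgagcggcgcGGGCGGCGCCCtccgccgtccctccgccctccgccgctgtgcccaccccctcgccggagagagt

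All 3 D-type cyclins were lower in the bort library, and they differed in how much. CCND3 (ENSG00000112576.12_3), the most abundant D-type cyclin of the untreated library, was at 37.4 FPKM there and at 6.05 FPKM in the bort library. This is 6.17-fold lower, a log2 fold change of -2.44, and 52 of the 10987 genes had a more negative value. CCND1, often raised in solid tumours and B cell malignancy, was at 4.99 and 1.32 FPKM, 3.77-fold lower, with a log2 fold change of -1.37. CCND2, a D-type cyclin common in blood cells, was at 14.6 and 7.92 FPKM, 1.84-fold lower, with a log2 fold change of -0.80. With the GC trend removed CCND3 was at -2.09, CCND1 at -1.08 and CCND2 at -0.76, so CCND3 and CCND1 remained past 2-fold. The transcripts of CCND3 and CCND1 have GC contents of 59.7% and 57.3%. CCND2 overlaps AC008012.1 on the same strand, and CCND1 overlaps LTO1 on the opposite strand, so part of either value may belong to the neighbour.

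Because CCND3 differed most, the order of the D-type cyclins changed. CCND3 held 65.7% of the summed FPKM of the 3 genes in the untreated library and 39.6% in the bort library, while CCND2 held 25.6% and 51.8%. The share of CCND1 was 8.77% and 8.65%. The summed level was 56.9 FPKM in the untreated and 15.3 FPKM in the bort library. Set against their kinases, the D-type cyclins came to 0.908 of the FPKM of CDK4 plus CDK6 in the untreated library and to 0.338 in the bort library.

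**Figure D2:**
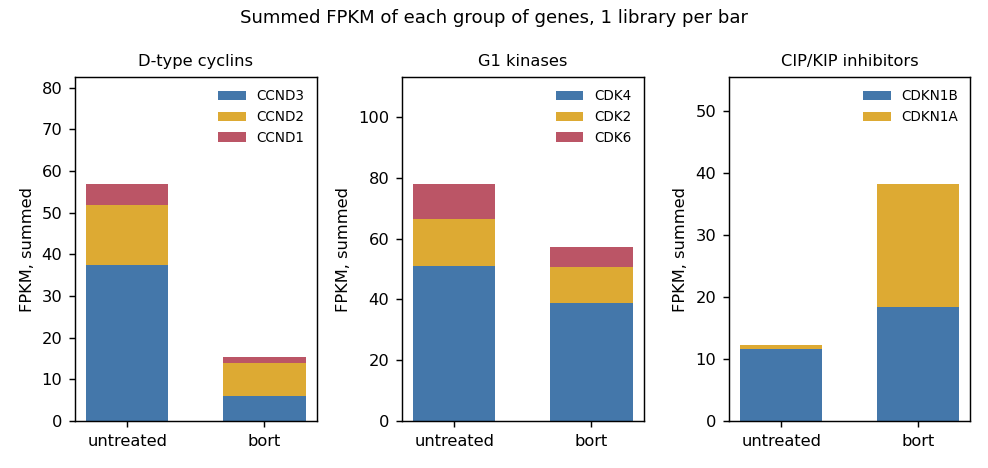
Summed FPKM of the D-type cyclins, the kinases and the CIP/KIP inhibitors in each library, 1 library per bar, with bars starting at 0 and a separate vertical scale in each panel. The cyclins sum to 56.9 and 15.3 FPKM, the kinases to 78.1 and 57.2 FPKM and the inhibitors to 12.2 and 38.2 FPKM in untreated and bort cells, respectively.

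Of the E-type cyclins, CCNE2 was higher and CCNE1 lower in the bort library. CCNE2, an activator of CDK2 at the G1/S boundary, was at 2.25 FPKM in the untreated and 5.32 FPKM in the bort library, 2.37-fold higher as a plain ratio and 0.96 on the log2(FPKM + 1) scale, just short of 2-fold. Its partner gene CCNE1 was at 14.7 and 10.4 FPKM, a log2 fold change of -0.46. CCNE2 therefore went from 13.3% to 33.9% of the FPKM of the pair, while the sum changed little, from 16.9 to 15.7 FPKM. The ratio of D-type to E-type cyclins was 3.37 in the untreated and 0.973 in the bort library. CCNE2 transcripts are poor in GC, at 36.6%, and with the GC trend removed the log2 fold change of CCNE2 was 0.33. CCNE2 also overlaps INTS8 on the opposite strand.

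Both CIP/KIP inhibitors among the 10 genes were higher in the bort library. CDKN1A (ENSG00000124762.13_2), which encodes p21, was at 0.680 FPKM in the untreated library, rank 10187 of 10987 by level, and at 19.8 FPKM in the bort library, rank 1889. This is 29.2-fold higher as a plain ratio and a log2 fold change of 3.63, and 6 of the 10987 genes had a larger one. The ratio rests on a low level in the untreated library whose counting error is unknown. CDKN1B, which encodes p27, was at 11.6 and 18.4 FPKM, 1.59-fold higher, with a log2 fold change of 0.63. CDKN1A went from 5.56% to 51.9% of their summed FPKM. The transcripts of CDKN1A are rich in GC, at 57.7%, and its log2 fold change was 3.93 with the GC trend removed, against 0.50 for CDKN1B. The summed FPKM of both inhibitors was 0.157 of that of CDK2, CDK4 and CDK6 in the untreated library and 0.668 in the bort library.

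The sequence before the start of CDKN1A is shown because this gene had the largest difference. The GC box GGGCGG, bound by SP1 and KLF factors, is in capitals on either strand. The window of 250 bases holds 4 copies, a number reached by 7.63% of all windows. The part printed, chr6:36678464-36678657 on the plus strand, stops where the UTR of a longer transcript begins and holds 2 of them. Of the 3 windows of CCND3, which differed in the opposite direction, the window with most held 5 copies, and the others 2 and 0. A number of 5 is reached by 4.15% of all windows, a share for single windows rather than the best of 3. The window with 5 copies has no bases before the UTR of a longer transcript begins, and the window with 2 holds 1 before such a UTR.
CDKN1A: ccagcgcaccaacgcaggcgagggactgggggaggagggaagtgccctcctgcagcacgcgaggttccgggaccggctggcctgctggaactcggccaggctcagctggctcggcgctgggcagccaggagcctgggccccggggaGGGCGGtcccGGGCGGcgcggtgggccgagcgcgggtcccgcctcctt

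RB1, the substrate of the G1 kinases, was at 3.49 FPKM in the untreated and 7.29 FPKM in the bort library. This is 2.09-fold higher as a plain ratio and 0.89 on the log2(FPKM + 1) scale, short of 2-fold. Its transcripts have a GC content of 37.8%, and with the GC trend removed the log2 fold change was 0.31. The 1091 genes with the lowest GC content had a median log2 fold change of 0.56, and the values of RB1 and CCNE2 lie above that median.

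**Figure D3:**
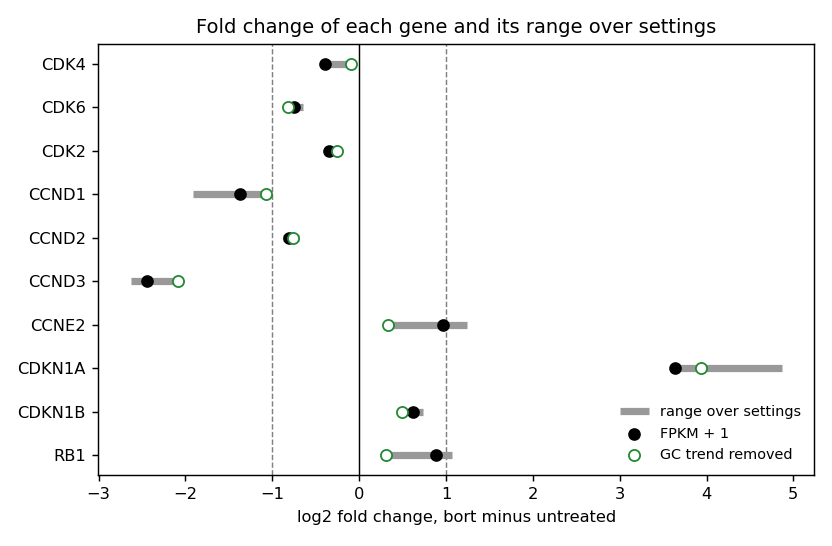
Log2 fold change of each gene, bort minus untreated. Black points give the FPKM + 1 scale, open points the value with the GC trend removed, and grey bars the range over the main and 8 other settings (7 for CDKN1A), with dashed lines at 2-fold. CCND3 ranges from -2.63 to -2.09 and CDKN1A from 3.63 to 4.87, while CCNE2, from 0.33 to 1.24, and RB1, from 0.31 to 1.07, cross the line.

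**Figure D4:**
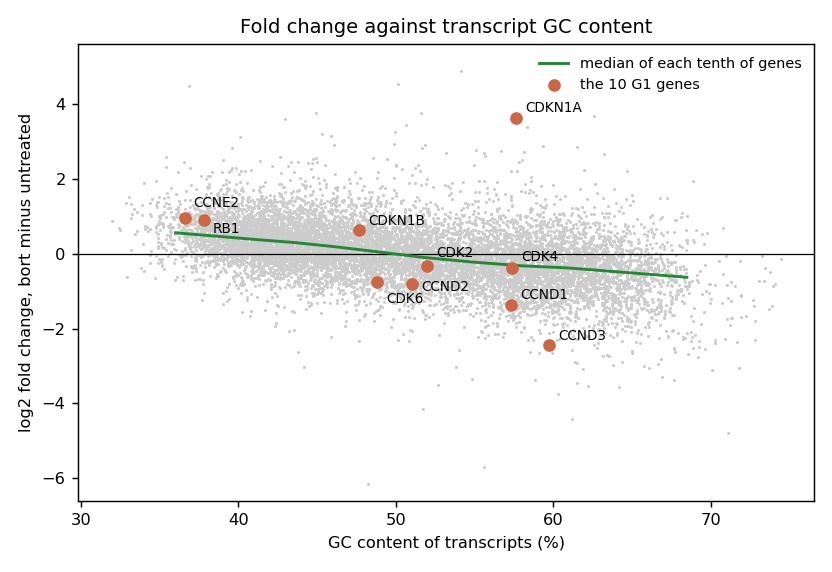
Log2 fold change against the GC content of transcripts for 10907 genes (grey), the median of each of 10 equal groups of genes by GC content (line) and the 10 G1 genes (orange). The median runs from 0.56 in the group with the lowest GC content to -0.63 in the group with the highest, and CDKN1A lies far above the line and CCND3 far below it.

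The 3 listed other inhibitors were lower in the bort library, none by 2-fold. CDKN1C, which encodes p57 of the CIP/KIP family, was at 5.47 and 3.21 FPKM in untreated and bort cells, respectively, a log2 fold change of -0.62. The INK4 gene CDKN2C (p18) was at 21.3 and 11.1 FPKM, or -0.88, and CDKN2D (p19) at 4.003 and 3.78 FPKM, or -0.066. The INK4 genes CDKN2A and CDKN2B were not listed and were not analysed here. Removing the GC trend moved CDKN2C to -0.65, CDKN1C to -0.14 and CDKN2D to 0.35.

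The CDK-activating kinase phosphorylates CDKs, and CDC37 delivers CDK4 and CDK6 to the chaperone HSP90. CDK7 was at 11.9 FPKM in the untreated and 17.5 FPKM in the bort library, MNAT1 at 5.28 and 8.43 FPKM, and CCNH at 8.78 and 6.82 FPKM. CDC37 was at 63.1 and 78.6 FPKM. None of the 4 passed 2-fold, and their median log2 fold change was 0.42. The median was 0.076 once the GC trend was removed, with CDK7 at 0.11, MNAT1 at 0.042, CCNH at -0.64 and CDC37 at 0.68.

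Downstream of RB1, 2 of the 12 other pocket protein, E2F and DP genes were higher by 2-fold or more and 1 was lower, against 8.08% and 10.2% of all genes. E2F6, a repressor of the E2F family, was at 4.11 and 10.8 FPKM in untreated and bort cells, respectively. RBL2, the p130 pocket protein of resting cells, was at 3.37 and 8.08 FPKM. TFDP1, the DNA-binding partner of E2F factors, was at 37.7 and 17.2 FPKM. After removal of the GC trend these 3 genes were at 0.93, 0.66 and -0.94, and 0 of the 12 passed 2-fold. Of 10907 genes 728 were then higher by 2-fold or more and 736 lower. The activator E2F1 was at 19.1 and 11.9 FPKM, a log2 fold change of -0.64. Its transcripts are rich in GC, at 62.5%, and its value shrank to -0.18 without the trend. Counting differences of any size, 6 genes of the list had positive values and 6 negative ones, with a median of -0.024. Taking out the trend left 2 positive and 10 negative values and a median of -0.32.

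Genes transcribed through E2F at the G1/S boundary were mostly lower in the bort library. Of 19 genes 17 were lower and 2 higher, with a median log2 fold change of -0.65, and 3 were lower by 2-fold or more while 0 were higher by that much. Over all 10987 genes 5461 were lower, and 10.2% were lower by 2-fold or more. MCM2, a subunit of the replicative helicase, was at 46.5 FPKM in the untreated and 16.7 FPKM in the bort library. TYMS, the thymidylate synthase, was at 153.6 and 63.4 FPKM, and the helicase subunit MCM3 at 124.1 and 59.5 FPKM. The genes against the rest were RRM2, a subunit of ribonucleotide reductase, at 15.4 and 30.5 FPKM, and CDK1, at 33.99 and 56.7 FPKM. After removal of the GC trend 16 of the 19 were lower, with a median of -0.49, and 4 passed 2-fold, all lower. Among these 4 were MCM2, TYMS and MCM6, while MCM3 was at -0.98. The 3 genes then higher included RRM2, at 0.62, and CDK1, with a GC content of 35.6%, at 0.041. Of 10907 genes 5560 were then lower, 736 of them by 2-fold or more.

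The kinases, cyclins and regulators of later phases were split in direction. Of 9 listed genes 6 were higher and 3 lower, with a median of 0.23, and CCNA1 was not listed. Over all 10987 genes 5526 were higher and 5461 lower. Removing the GC trend gave 5 higher and 4 lower genes and a median of 0.041. CCNB1, the mitotic cyclin, was at 74.9 and 88.0 FPKM in untreated and bort cells, respectively. WEE1, a kinase that inhibits CDK1, was at 4.43 and 11.8 FPKM, and its relative PKMYT1 at 23.6 and 10.003 FPKM. These were the genes past 2-fold, 1 of 9 in each direction, against 8.08% of all genes higher and 10.2% lower. With the GC trend removed WEE1 and PKMYT1 were within 2-fold, at 0.81 and -0.43.

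Parts of the ubiquitin ligases that act on p27, p21 and G1 cyclins were also compared. Of 18 genes 9 were higher and 9 lower, with a median of 0.051, while removing the GC trend gave 7 higher and 11 lower genes and a median of -0.12. SKP2, the F-box protein that recognises p27, was at 12.0 FPKM in the untreated and 5.47 FPKM in the bort library, a log2 fold change of -1.005, and its cofactor CKS1B at 40.6 and 66.1 FPKM. UBAC1, part of a ligase complex for p27 in the cytoplasm, was at 187.1 and 91.5 FPKM, or -1.02. FBXW7, which recognises cyclin E, was at 0.828 and 2.23 FPKM, the largest increase of the list at 0.82. SKP2 and UBAC1 were the genes past 2-fold, both lower, against 10.2% of all genes lower by that much. With the GC trend removed only SKP2 was, at -1.01 against -0.70 for UBAC1, and 736 of 10907 genes were lower by 2-fold. Without that removal 5461 of all 10987 genes were lower by any amount.

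The study reported that bort lowered p65 and p50 protein and the binding of p65 at the CDK6 promoter. Transcripts of the NF-kB subunits, which measure neither protein nor binding, were therefore set beside CDK6. RELA, which encodes p65, was at 13.6 FPKM in the untreated and 16.6 FPKM in the bort library, a log2 fold change of 0.28. NFKB1 was at 4.04 and 1.99 FPKM, or -0.76. With the GC trend removed RELA was at 0.65 and NFKB1 at -0.79. NFKB2 was at 5.42 and 13.9 FPKM, or 1.22, and was the subunit past 2-fold, against 8.08% of all genes higher by that much. RELB was at 0.451 and 1.77 FPKM and REL at 0.559 and 1.52 FPKM, and with the GC trend removed RELB also passed 2-fold, at 1.54. RELB was listed only through the bort library, so it could come out only as higher. The median of the 5 subunits was 0.69, 0.65 without the GC trend, and 0.28 when each library had to reach 1 FPKM, which removes RELB and REL. Among the genes named from these lists, CCNH, RBL2, MCM2, TYMS and PKMYT1 overlap a gene on the opposite strand and RRM2 overlaps AC007240.1 on the same strand. Transcript levels give neither the amount of p65 in the nucleus nor its binding.

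**Figure D5:**
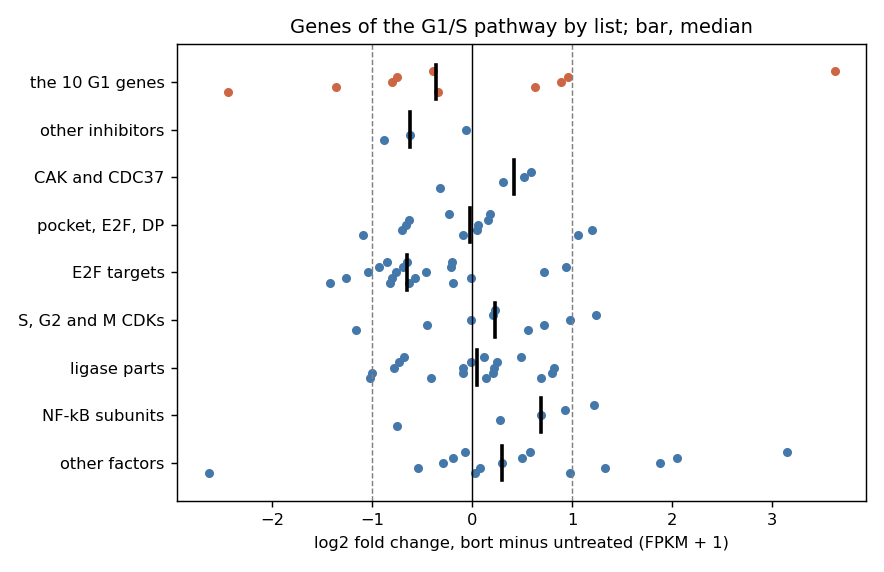
Log2 fold change on FPKM + 1, bort minus untreated, of each listed gene (points, spread vertically for legibility) by list, with the median as a black bar and dashed lines at 2-fold. The E2F targets lie mostly to the left, with a median of -0.65, and the NF-kB subunits mostly to the right, with a median of 0.69.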

How the data were processed

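RNA sequencing of 2 libraries was analysed, 1 per condition, grouped by the treatment label. Trimmed reads were mapped by the authors with HISAT2 2.0.4 and assembled with StringTie 1.2.3, and the deposited table holds FPKM per gene although its title speaks of counts. GRCh37 is named in the submitters' processing notes, and the annotation is not given in the sources used here. The labels name a TruSeq kit and the study a stranded poly-A kit. No read counts were used, depth is unknown, and no count test, interval or detection limit was possible.

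Fold changes were differences of log2(FPKM + 1) with a threshold of 2-fold. The study names a 2-fold threshold, and the pseudocount and log scale were chosen here. Where a symbol occurs on a pair of identifiers the first was used (7 symbols). GC content and length are medians over protein-coding transcripts of GENCODE 29, matched by identifier for 10907 genes (99.3%), and the trend was removed by lowess with a span of 0.3, keeping the median of all genes. Other pseudocounts, scalings, a filter and other thresholds were tried. Overlaps are of exons of protein-coding genes in GENCODE 29. Promoter windows came from RefSeq, and the window of RB1 lies at an internal start and is not shown. Calculations were tested on simulated data. Python 3.11.15, numpy 2.4.6, pandas 2.3.3, statsmodels 0.14.6 and matplotlib 3.10.9 were used.

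The genes named are all 10 G1 genes, the largest increase and decrease of each further list, every gene past 2-fold, CCNE1, CDC37, the other inhibitors, RELA and NFKB1. E2F1, CCNB1, CDK7, MCM6, CEBPB, CKS1B, CDK1, RELB, REL, FOXO1, FOXO4, STAT5B, MYC and SP1 were added for their roles with their values known. The genes and lists were chosen with earlier results of these data known, E2F1, CCNA2, CDK1 and CEBPA stand in more than 1 list, and no list is independent support. Some genes and 1 list are not reported here.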

Additional observations from a re-analysis of the deposited data

How the results depend on the processing

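No paired analysis was possible because there is 1 library per condition, which also means that none could be left out. Over 79 values of the 10 G1 genes under other settings none changed sign, and 72 stayed on the same side of 2-fold. CCNE2 passed 2-fold at 1.21 with a pseudocount of 0.1 FPKM, 1.08 with 0.5 FPKM, 1.24 with none, and 1.04 and 1.05 with upper quartile scaling and with totals without the 20 most abundant genes. RB1 passed it at 1.04 with a pseudocount of 0.1 FPKM and 1.07 with none, and the median of the NF-kB subunits did at 1.29 and 1.36, but was 0.28 when each library had to reach 1 FPKM. The G1 genes higher by 2-fold, 1 on FPKM + 1, were 3 with 0.1 FPKM or no pseudocount, 2 with 0.5 FPKM, upper quartile scaling or totals without the 20 most abundant genes, 4 at 1.5-fold, and 0 when each library had to reach 1 FPKM, which removes CDKN1A. Those lower were 4 at 1.5-fold and 1 at 4-fold. Over all genes, 888 were higher and 1125 lower at 2-fold. Those higher were 1576 with 0.1 FPKM, 1654 with no pseudocount, 2282 at 1.5-fold and 92 at 4-fold, and those lower 1708 with no pseudocount, 736 with the GC trend removed, 2378 at 1.5-fold and 135 at 4-fold. The scale factor of the bort library against the untreated was -0.11 (log2) with upper quartile scaling. It was also -0.11 with totals without the 20 most abundant genes. Dividing by these factors raised the fold changes. Except by construction of a threshold, filter or pseudocount, the cause was not tested. The counting error of CDKN1A, CCND1 and other low genes cannot be given without the depth.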

Other observations

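Among 16 transcription factors known to act on the G1 genes 15 were listed and CEBPA was not. Of these, 4 were higher by 2-fold or more in the bort library and 1 was lower, against 8.08% and 10.2% of all genes, with a median log2 fold change of 0.30. With the GC trend removed 5 were higher by 2-fold or more, against 728 of 10907 genes, CEBPB joining them at 1.63 from 0.98. The median was then 0.30. KLF6, a zinc finger factor that can induce CDKN1A, was at 2.65 FPKM in the untreated and 31.5 FPKM in the bort library. KLF4, another inducer of CDKN1A, was at 0.857 and 6.69 FPKM. ATF3, a stress-induced factor, was at 1.77 and 9.22 FPKM. FOXO3, which can raise CDKN1B, was at 3.79 and 11.02 FPKM, while FOXO1 was at 0.966 and 1.00 FPKM and FOXO4 at 7.48 and 4.83 FPKM.

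STAT5A, which acts downstream of cytokine receptors and can raise D-type cyclins, was at 74.7 FPKM in the untreated and 11.1 FPKM in the bort library, a log2 fold change of -2.64. Its close relative STAT5B was at 31.2 and 25.2 FPKM. MYC was at 6.64 and 5.69 FPKM and SP1 at 7.19 and 6.78 FPKM, both within 1.5-fold, and with the GC trend removed the log2 fold change of MYC turned from -0.19 to 0.14 and that of FOXO1 from 0.027 to -0.16. Whether these factors bear on the G1 genes was not tested.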
